A study of Bos taurus with 68 samples.

Results

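Of the complement system, 7 genes that encode proteases, the C4 component and regulators had a clone on a bovine cDNA array and were followed in cow liver around calving: C1R, C1S, C2, C4A, CFP, CD59 and CFD. They were found by gene symbol in the array's annotation after old symbols had been updated, and each was represented by 1 clone among 5693 listed clones. All 7 had a value in every cow and on every day sampled, and all 7 were among the 5280 clones tested. Because an expressed cDNA can bind transcripts of a close relative, the C4A clone may also measure other C4 copies.

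Complement is a cascade of plasma proteins that marks microbes and damaged cells for removal. In the classical pathway, C1q bound to antibody switches on the protease C1r, which cleaves C1s, and C1s in turn cleaves C4 and C2 to form the enzyme that activates C3. The alternative pathway uses factor D (CFD) for a similar step and is stabilised by properdin (CFP), while CD59 on the cell surface blocks assembly of the pore that would lyse the host's own cells. The liver is the main source of most circulating complement proteins, C1q and properdin being made largely by macrophages and other leukocytes and factor D by fat cells.

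Liver RNA came from 5 cows, numbered 6934, 6983, 7079, 7186 and 7188, and the groups are days relative to calving: -65, -30 and -14 before it and 1, 14, 28 and 49 after it. No treatment, breed, age or diet is given in the labels, and the same animals were sampled repeatedly, so the days share cows. In the larger of both deposited tables, 60 arrays gave 30 cow-days, with 5 cows on days -65, -30, 1 and 28, with 3 on days -14 and 14, and with 4 on day 49. Each value is a log2 ratio that sets liver against a common reference RNA and is the mean of a dye-exchanged pair, so 1 unit is a 2-fold difference. The direction of the ratio is only likely: if it runs the other way, every sign below turns, also of differences between days. A log2 ratio is read against the reference for 1 clone and does not rank genes by transcript amount.

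All 5 measured hepatocyte genes of a fixed list had means above the reference, with a median log2 ratio of 2.46, while 4 of 5 genes of tissues outside the liver lay below it. APOA1, the lowest of the hepatocyte genes, stood at 0.06 ± 0.21 (SD of the cow means), not clear of the reference. All 11 measured macrophage and Kupffer cell genes had means above the reference, with a median of 1.23, and all 6 stellate cell and matrix genes lay below it. Among the former, CD163 at 0.05 ± 0.34 and CTSD at 0.06 ± 0.20 (SD) were not clear of it. No adipocyte or erythroid marker of the lists was among the tested clones. The arrays held from 14607 to 16288 measured rows each. The exchanged arrays of a pair should correlate below 0 across rows before the sign is turned, and 5 of 30 pairs did not: cow 6934 on day 49, cow 6983 on day 14, cow 7079 on day 1, cow 7186 on day 14 and cow 7188 on day 49. Lactation days held 4 of these 5 in 12 cow-days, day 1 held 1 in 5, and the days before calving held 0 in 13.

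Among the initiating proteases, C1R, the first enzyme of the classical pathway, lay at a log2 ratio of 4.17 ± 0.69 (SD of the cow means, n = 5). Its 30 values ran from 1.69 to 6.17. C1S, which C1r activates, lay at 2.19 ± 0.66 and ran from 0.30 to 4.41. Both were above the reference in 30 of 30 cow-days. C1R and C1S are direct neighbours in the cattle genome, with 0 protein-coding genes between them (ARS-UCD2.0).

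C2, the protease that joins C4b in the C3-cleaving enzyme, lay at 3.37 ± 0.39 (SD, n = 5), between 1.56 and 4.99. C4A, the component cleaved by C1s, lay at 2.06 ± 0.43, between 0.57 and 3.91. Both genes belong to the major histocompatibility complex region, and 5 protein-coding genes stand between them in that annotation. Like C1R and C1S, both exceeded the reference in 30 of 30 cow-days.

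Of the regulators, CD59 lay at 2.91 ± 0.36 (SD, n = 5), between 1.00 and 3.92, and properdin, CFP, at 1.62 ± 0.20, between 0.65 and 2.67. Both exceeded the reference in all 30 cow-days. CFD lay at -0.18 ± 0.07, close to the reference but below it in the mean of each of 5 cows, which ran from -0.26 to -0.08, and it exceeded the reference in 4 of 30 cow-days.

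**Figure D1:**
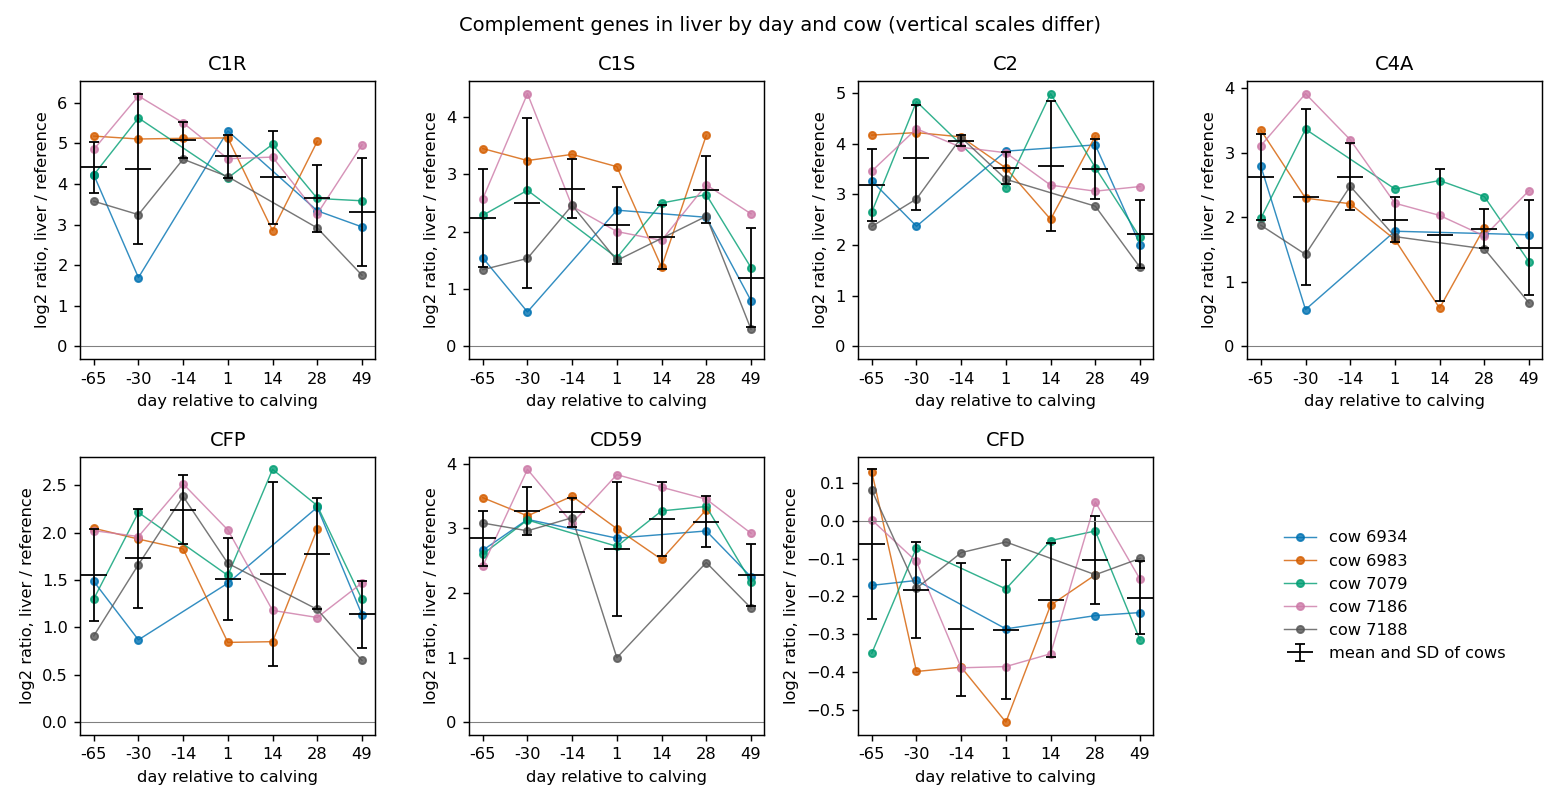
Log2 ratio of liver over reference (vertical axis, a separate scale for each gene) against day relative to calving for the 7 complement genes. Coloured points and lines are single cows, black bars the mean and SD of the cows on that day; C1R, C1S, C2, C4A, CFP and CD59 stay above 0 in all 30 cow-days, CFD lies near 0, and cow 6934 on day -30 is low for C1R (1.69) and C4A (0.57).

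The precision of these values differs between the genes. Both spots of a clone on 1 array correlated across arrays at 0.99 for C1R and C1S, 0.97 for C4A and CD59, 0.84 for C2, 0.83 for CFD and 0.49 for CFP. Between the arrays of an exchanged pair, which carry the same cow and day, the correlation over 30 cow-days was 0.10 for C1R, 0.08 for C1S, 0.37 for C2, 0.28 for C4A, 0.33 for CFP, 0.51 for CD59 and 0.09 for CFD. The mean over cow-days differed between the dyes for every member. For C2 that difference was small beside the SD of the difference within pairs, 1.14. The average of a pair balances a constant offset, but not a gap that changes sign between cow-days, as that of C1R did. With liver in Cy3 and then in Cy5, the means were 3.84 and 4.59 for C1R, 1.73 and 2.71 for C1S, 3.29 and 3.47 for C2, and 1.81 and 2.38 for C4A. They were 2.52 and 3.33 for CD59 and -0.40 and 0.03 for CFD, while CFP alone was higher in Cy3, at 1.99 against 1.26. The SD of the difference between the arrays of a pair was 2.02 for C1R and 1.72 for C1S, against 0.71 for CD59 and 0.29 for CFD. The widest gaps lay in a few cow-days. For both genes they included day 28 in every cow but 6983. For C1R they also included cow 7188 on day -30 (0.55 in Cy3, 5.94 in Cy5) and cow 6983 on day 14 (4.59 and 1.12). On day 1, by contrast, no C1R pair lay further apart than 4.97 and 5.64, in cow 6934. In the cow-days with wide gaps, a single array thus located C1R and C1S poorly although its spots matched closely. C1R also came nearest to the upper end of the deposited values: 46 of its 120 spots had a size of 4.9 or more, against 5 for C2, 2 for C1S, 1 for CFP and 0 for the other members. Among all deposited values of that size, 22.8% could be written as a quotient of integers no larger than 40, which leaves their size coarse.

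**Figure D2:**
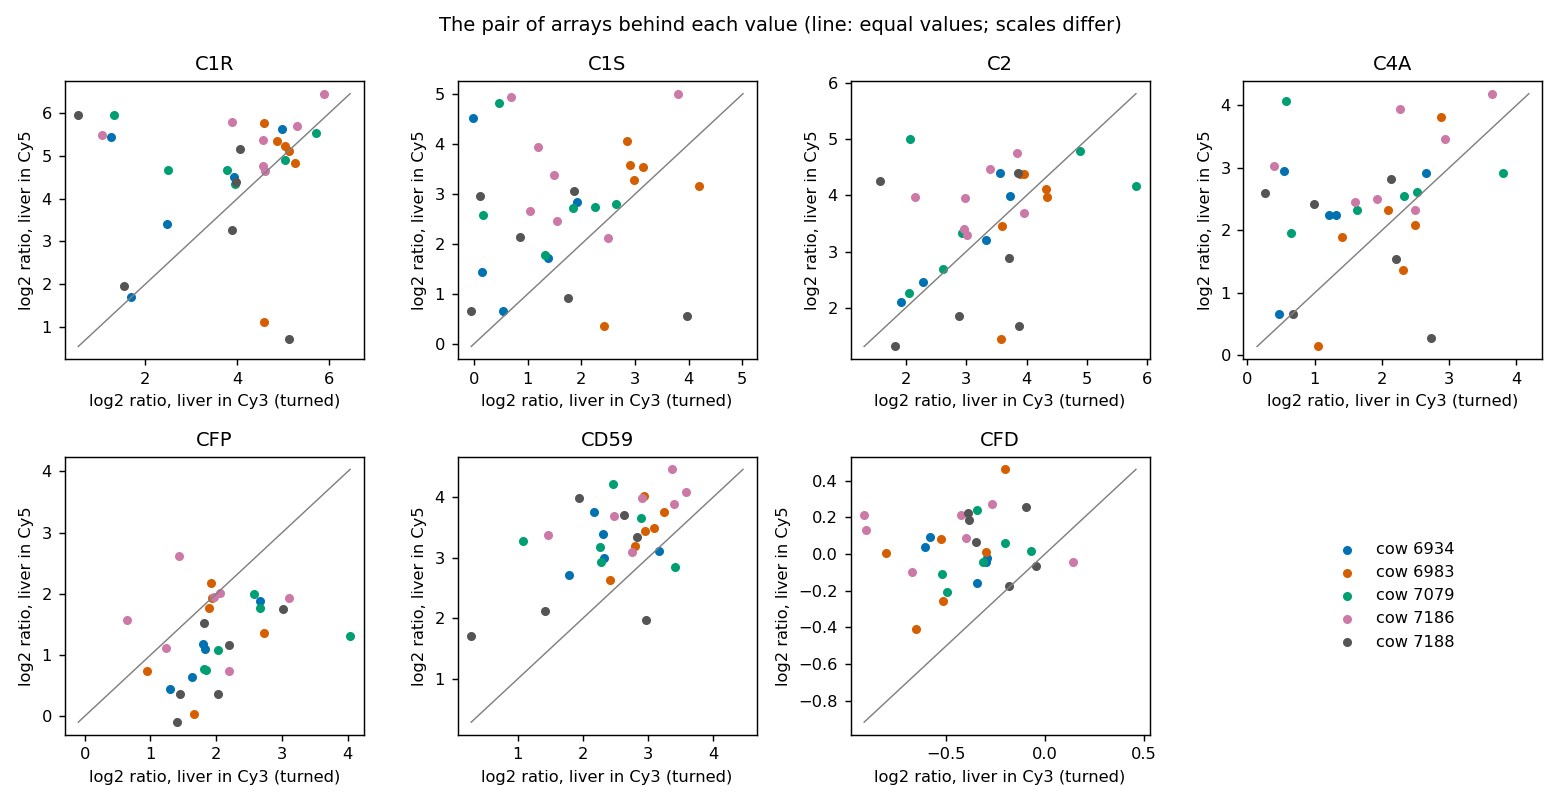
Log2 ratio with liver in Cy5 (vertical axis) against the turned log2 ratio with liver in Cy3 (horizontal axis) for each of 30 cow-days, coloured by cow; the line marks equal values. For C1R (correlation 0.10) and C1S (0.08) the arrays of a pair scatter widely, while CD59 (0.51) holds closer to a line parallel to that of equal values.

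Across the 7 days, the means of C1R ran from 5.08 ± 0.45 on day -14 (SD, n = 3) to 3.31 ± 1.34 on day 49 (n = 4), with 4.41 on day -65, 4.37 on day -30, 4.68 on day 1, 4.16 on day 14 and 3.64 on day 28 between them. On day -30 alone the cows spread from 1.69 in cow 6934 through 3.24 in cow 7188, 5.11 in cow 6983 and 5.62 in cow 7079 to 6.17 in cow 7186. That spread exceeds the whole range of the day means. It includes differences between cows, which the fits below take out, so it does not tell whether neighbouring days differ. The order of the days is a description. C1S followed another order, highest on day -14 at 2.75 ± 0.52 (n = 3), nearly as high on day 28 at 2.73 ± 0.58 (n = 5) and lowest on day 49 at 1.20 ± 0.86 (n = 4).

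C2 was highest on day -14 at 4.06 ± 0.11 (SD, n = 3) and lowest on day 49 at 2.22 ± 0.67 (n = 4), and the days between had means from 3.18 to 3.73. On day -14 the cows stood at 3.93, 4.12 and 4.14, and on day 49 at 1.56, 2.01, 2.15 and 3.16. These were its highest and lowest of 7 days, picked after the values were seen, and the day effect below does not pass for C2. C4A stood at 2.63 ± 0.51 on day -14 and 2.62 ± 0.66 on day -65, and its 4 days from calving on had means from 1.53 on day 49 to 1.96 on day 1. The means of CFP ran from 2.24 on day -14 to 1.14 on day 49, those of CD59 from 3.27 on day -30 to 2.28 on day 49, and those of CFD only from -0.29 on day 1 to -0.06 on day -65. In all, 5 of 7 genes had their highest mean on day -14, against 10.2% of all tested clones and 13.6% of the 220 other clones at least 2-fold above the reference. Day 49 held the lowest mean of 6 of 7, against 13.2% and 46.4%. After each cow-day was divided by its slope on the mean profile of the array, a measure of how stretched its ratios are that is described below, these counts were 4 and 5 of 7, against 12.7% and 28.2% of the 220. Day 49 had the lowest mean slope of the 7 days, 0.88. Day -14 had 3 cows and day 49 had 4, of which 2 had a pair that did not oppose.

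Whether any gene differed among the days was tested with a moderated F test (limma, terms for day and cow, Benjamini-Hochberg adjustment over all clones). None of the 7 passed an adjusted p of 0.05, where 0.0189% of all tested clones passed, that is 1 of 5280. The smallest p-values before adjustment were those of C1S with F = 2.73 and p = 0.0371 (adjusted p = 0.934) and C2 with F = 2.61 and p = 0.0440 (adjusted p = 0.938); 2 of 7 members and 5.23% of all clones lay under an unadjusted 0.05. The remaining members had unadjusted p-values from 0.0661 for C4A to 0.530 for CFD. When limma's array weights gave noisier cow-days less influence, 6 of 7 members passed the adjusted threshold, all but CFD, but so did 884 of the 5280 clones. The call for a day effect thus depended on that weighting.

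The broadest comparison set lactation, the mean of days 14, 28 and 49, against the prepartum period, the mean of days -65, -30 and -14. These names stand only for days after and before calving. Whether any cow was still in milk on day -65 was not examined, so prepartum is not read as dry. The estimates of 6 of 7 members were below 0, with a median of -0.57 over the 7, against 52.2% of all tested clones and a median of -0.01. No member passed the adjusted threshold (0%, 0 of 5280 clones passed); all 7 adjusted p-values were 0.9998. Before adjustment, 4 of 7 members lay under 0.05 on the lower side, where 2.48% of all clones did, and 3.88%, or 205 clones, lay under it in either direction. The members were chosen as complement genes and most lie far above the reference, so the set of 220 other clones at least 2-fold above the reference is the nearer standard: 76.8% of those had estimates below 0, with a median of -0.24, and 39 of 220 lay under 0.05 unadjusted and lower.

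C4A had the smallest p-value in this comparison, with an estimate of -0.94 ± 0.26 (SE; 95% interval -1.48 to -0.40), which is 1.92-fold lower in lactation, and an unadjusted p of 0.00154 (adjusted p = 0.9998). By cow, the difference was 0.06 in cow 6934, -1.40 in cow 6983, -0.61 in cow 7079, -1.36 in cow 7186 and -0.83 in cow 7188, so 4 of 5 cows were lower and 1 was close to 0. Before calving its values were 2.79 and 0.57 in cow 6934, 3.35, 2.29 and 2.21 in cow 6983, 1.98 and 3.36 in cow 7079, 3.10, 3.91 and 3.20 in cow 7186, and 1.88, 1.42 and 2.48 in cow 7188. In lactation they were 1.75 and 1.73 in cow 6934, 0.59 and 1.84 in cow 6983, 2.57, 2.32 and 1.31 in cow 7079, 2.03, 1.71 and 2.41 in cow 7186, and 1.51 and 0.67 in cow 7188. Within cows 6983 and 7186 every prepartum value lay above every lactation value, while in the other 3 cows the ranges overlapped.

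C1R had the largest estimate, -1.01 ± 0.36 (SE; 95% interval -1.75 to -0.27), 2.01-fold lower in lactation, with an unadjusted p of 0.00988 (adjusted p = 0.9998). The cows stood at 0.18 in cow 6934, -1.19 in cow 6983, -0.85 in cow 7079, -1.21 in cow 7186 and -1.47 in cow 7188. Its prepartum values were 4.23 and 1.69 in cow 6934, 5.18, 5.11 and 5.12 in cow 6983, 4.22 and 5.62 in cow 7079, 4.85, 6.17 and 5.50 in cow 7186, and 3.57, 3.24 and 4.61 in cow 7188. In lactation it measured 3.34 and 2.94 in cow 6934, 2.85 and 5.05 in cow 6983, 4.97, 3.64 and 3.59 in cow 7079, 4.66, 3.26 and 4.96 in cow 7186, and 2.92 and 1.75 in cow 7188. In cow 6983 the lower mean came from day 14 alone, which was one of the pairs that did not oppose. Cow 6934, the exception, was low before calving through its day -30 value of 1.69.

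C2 had an estimate of -0.64 ± 0.28 (SE, unadjusted p = 0.0319) and C1S of -0.57 ± 0.26 (unadjusted p = 0.0382), each with lower values in 4 of 5 cows, again all but cow 6934. Lower values in at least 4 of 5 cows were found for 17.8% of all clones. CFP had an estimate of -0.43 ± 0.21 (unadjusted p = 0.0511) and CD59 of -0.32 ± 0.20 (unadjusted p = 0.121), and for each 3 of 5 cows were lower. CFD had an estimate of 0.01 ± 0.08, with a 95% interval from -0.16 to 0.18, the narrowest of the 7. In bulk liver, fewer cells of a type and less RNA per cell cannot be told apart.

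**Figure D3:**
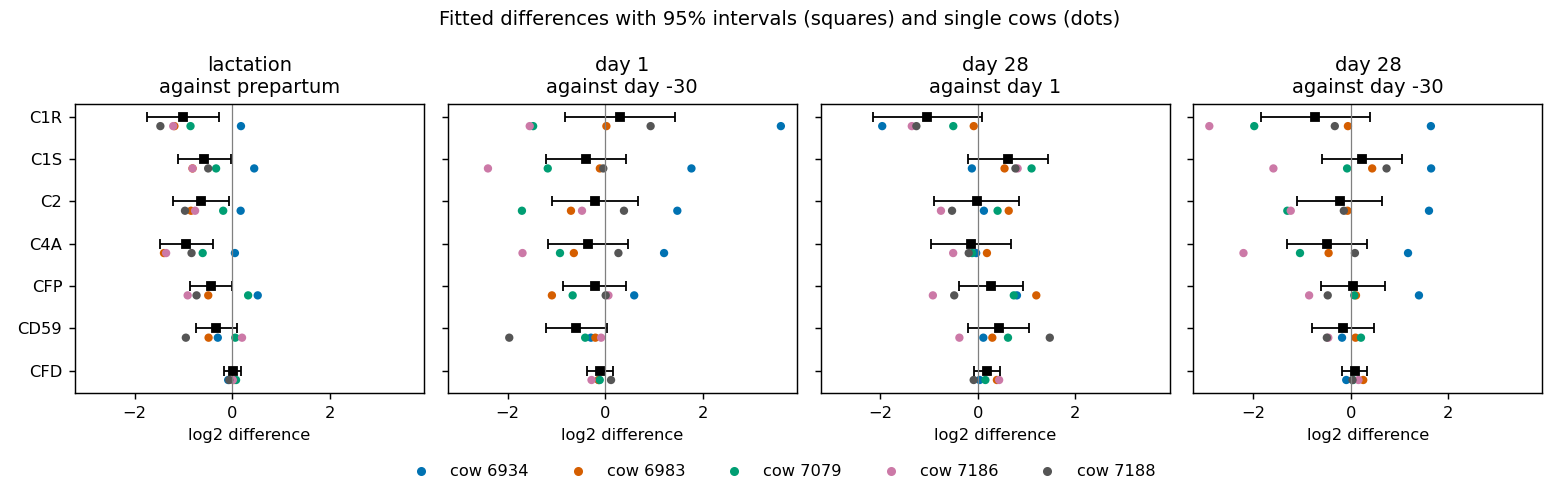
Fitted log2 difference (horizontal axis) of the 7 complement genes in 4 comparisons; squares are limma estimates with 95% intervals and dots are the differences within single cows. In lactation against prepartum the intervals of C1R, C1S, C2 and C4A lie below 0 before adjustment and cow 6934 lies on the other side; in day 1 against day -30 the cows spread from -1.55 to 3.61 for C1R.

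These estimates moved with the choice of cow-days. Without the 5 cow-days whose pair did not oppose, the lactation estimate was -0.45 for C1R, -0.12 for C1S, 0.01 for C2, -0.62 for C4A, -0.04 for CFP and -0.14 for CD59. Without day 49 it was -0.91 for C1R and -0.90 for C4A but -0.26 for C2, -0.33 for C1S, -0.26 for CFP and -0.09 for CD59. C1R and C4A were thus the members whose lower estimate did not rest on day 49, and leaving out the pairs that did not oppose reduced both.

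A second, smaller table from another array print gave 4 cow-days, and all 4 of its pairs opposed. There the cow that had both day -14 and day 14, cow 6934, measured 4.92 and 4.72 for C1R, 3.45 and 4.06 for C1S, 2.48 and 2.56 for C2, and 3.27 and 3.19 for C4A. It also measured 1.00 and 1.31 for CFP, 3.31 and 3.28 for CD59, and -0.86 and -0.87 for CFD. The differences lay between -0.21 for C1R and 0.61 for C1S. In the larger table, cow 6983 moved from 5.12 to 2.85 for C1R and from 2.21 to 0.59 for C4A between those days, and cow 7186 from 5.50 to 4.66 and from 3.20 to 2.03. The day 14 pairs of both these cows did not oppose. A single cow allows no test, the prints were normalised separately, and levels are not compared between them.

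Day 1 against day -30 spans calving in 5 cows. No member passed the adjusted threshold (0.0189% of clones, 1 of 5280), and none lay under an unadjusted 0.05, where 8.39% of clones did. CD59, which protects host cells from lysis, came closest: it measured 3.14, 3.20, 3.13, 3.92 and 2.96 on day -30 and 2.85, 2.997, 2.72, 3.83 and 1.00 on day 1, in cows 6934, 6983, 7079, 7186 and 7188. It was lower on day 1 in 5 of 5 cows, with differences from -0.08 to -1.97, while 26.4% of all clones were lower in at least 4 of 5. The estimate was -0.59 ± 0.31 (SE, unadjusted p = 0.0663, adjusted p = 0.630) and its size rests largely on cow 7188. Estimates were below 0 for 6 of 7 members and 57.1% of clones. Of the 220 other clones at least 2-fold above the reference, 84.55% were below 0, with a median of -0.39, so the members stood near that share. The other 6 members had estimates from -0.39 for C1S to 0.31 for C1R, each smaller than its SE.

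For C1R in this comparison the cows went opposite ways, with differences of 3.61 in cow 6934, 0.03 in cow 6983, -1.48 in cow 7079, -1.55 in cow 7186 and 0.94 in cow 7188. C1S, C2 and C4A showed the same arrangement at its ends, with cow 6934 highest at 1.77, 1.48 and 1.21, and with cow 7186 or 7079 lowest at -2.40, -1.71 and -1.69. The proteases and C4 therefore had no common direction at calving beyond the spread between animals.

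Day 28 against day 1 shares its day 1 samples with the comparison above. None of the 7 passed the adjusted threshold (0% of clones) and none lay under 0.05 unadjusted, where 7.84% did. C1R was lower on day 28 in 5 of 5 cows, with differences of -1.96, -0.09, -0.50, -1.36 and -1.26 in cows 6934, 6983, 7079, 7186 and 7188, and 13.3% of all clones were lower in at least 4 of 5. Its estimate was -1.04 ± 0.55 (SE, unadjusted p = 0.0701, adjusted p = 0.662). The day 28 pairs behind it opposed across rows but disagreed widely for C1R. With liver in Cy3 and then in Cy5, it measured 1.25 and 5.43 in cow 6934 and 1.33 and 5.96 in cow 7079. It measured 1.05 and 5.48 in cow 7186, 5.125 and 0.71 in cow 7188, and 5.26 and 4.83 in cow 6983. Day 28 pairs of C1S were likewise apart, at -0.015 and 4.52 in cow 6934 but 4.20 and 3.16 in cow 6983. C1S, its neighbour and substrate, moved the other way, with an estimate of 0.62 ± 0.40 and higher values in 4 of 5 cows, as 27.4% of clones had in at least 4. Estimates were below 0 for 3 of 7 members, 38.1% of clones and 26.8% of the 220 other clones at least 2-fold above the reference. C2 at -0.03 ± 0.42 and C4A at -0.13 ± 0.40 had intervals centred near 0. CFP had 0.26 ± 0.32, CD59 0.42 ± 0.31 and CFD 0.19 ± 0.13.

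Day 28 against day -30, which shares samples with both of these, gave C1R -0.73 ± 0.55, C1S 0.23 ± 0.40, C2 -0.23 ± 0.42, C4A -0.49 ± 0.40, CFP 0.05 ± 0.32, CD59 -0.17 ± 0.31 and CFD 0.08 ± 0.13 (SE). All 7 adjusted p-values were 0.9995, 0% of clones passed, and no member but 2.69% of clones lay under 0.05 unadjusted. Estimates were below 0 for 4 of 7 members, 52.1% of clones and 69.55% of the 220 other clones at least 2-fold above the reference. The 95% interval of C1R ran from -1.85 to 0.40 and that of CFD, the narrowest of the 7, from -0.18 to 0.34.

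The genes deviated together from one cow-day to the next. With cow means removed, the mean deviation of the 6 members other than CFD ran in common: in 8 of 30 cow-days all 6 lay above their cow's own mean and in 3 all 6 lay below it, namely cow 6983 on day 14 and cows 7079 and 7188 on day 49. This joint deviation moved with a property of the whole array. The slope of a cow-day on the mean profile of all other complete clones says how strongly its ratios are stretched or compressed as a whole, and it ran from 0.59 in cow 6934 on day -30 to 1.36 in cow 7186 on day -30. Over 30 cow-days the joint deviation and the slope correlated at 0.83, with cow means removed from the members only. A clone far above the reference moves with a stretch of all ratios, so such a correlation is in part built in. By gene, and with cow means not removed, the log2 ratio correlated with the slope at 0.87 for C1R, 0.84 for C1S, 0.78 for C2, 0.77 for C4A, 0.59 for CFP, 0.34 for CD59 and 0.10 for CFD. These cow-days share 5 cows, and the values are a description. The same values are not given here for other clones far above the reference, so the joint deviation is not shown to be particular to complement.

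**Figure D4:**
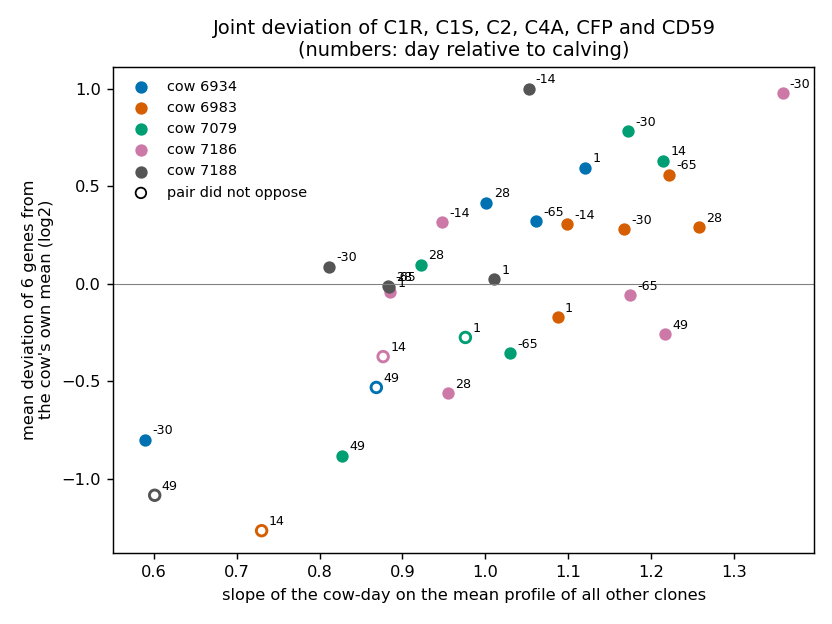
Mean deviation of C1R, C1S, C2, C4A, CFP and CD59 from the cow's own mean (vertical axis, log2) against the slope of the cow-day on the mean profile of all other clones (horizontal axis), 1 point for each of 30 cow-days, numbered by day and coloured by cow. The points rise from lower left to upper right (correlation 0.83); open circles are the 5 cow-days whose pair of arrays did not oppose.

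The slope also differed between the periods. Its mean in lactation minus that before calving was 0.11 in cow 6934 and -0.17, -0.11, -0.14 and -0.17 in cows 6983, 7079, 7186 and 7188, so the same cow stood apart in the slope and in C1R, C1S, C2 and C4A. When each cow-day was divided by its slope, a choice made after the data were seen, the lactation estimate was -0.54 ± 0.18 (SE) for C1R, -0.34 ± 0.15 for C1S, -0.32 ± 0.15 for C2, -0.71 ± 0.18 for C4A, -0.29 ± 0.17 for CFP, -0.04 ± 0.31 for CD59 and -0.01 ± 0.08 for CFD. No member passed the adjusted threshold then either. The estimate of C4A thus kept more of its size than those of C1R, C1S and C2.

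Division by the slope changed the spread around the day and cow terms as well. The residual SD of C1R went from 0.94, higher than in 99.3% of the tested clones, to 0.46, that of C2 from 0.73 to 0.37, that of C1S from 0.67 to 0.37 and that of C4A from 0.68 to 0.46, near the median of all tested clones of 0.37. For CD59 it was 0.51 before and 0.82 after, and for CFD it was 0.15 before and 0.16 after. Day 28 against day 1 then gave C1R -1.01 ± 0.28 (SE, unadjusted p = 0.00136, adjusted p = 0.205) and C1S 0.65 ± 0.23 (unadjusted p = 0.0103), opposite in sign as before. The day effect of C2 then had an unadjusted p of 0.000131 (adjusted p = 0.231) and that of C1S one of 0.000539 (adjusted p = 0.316).

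**Figure D5:**
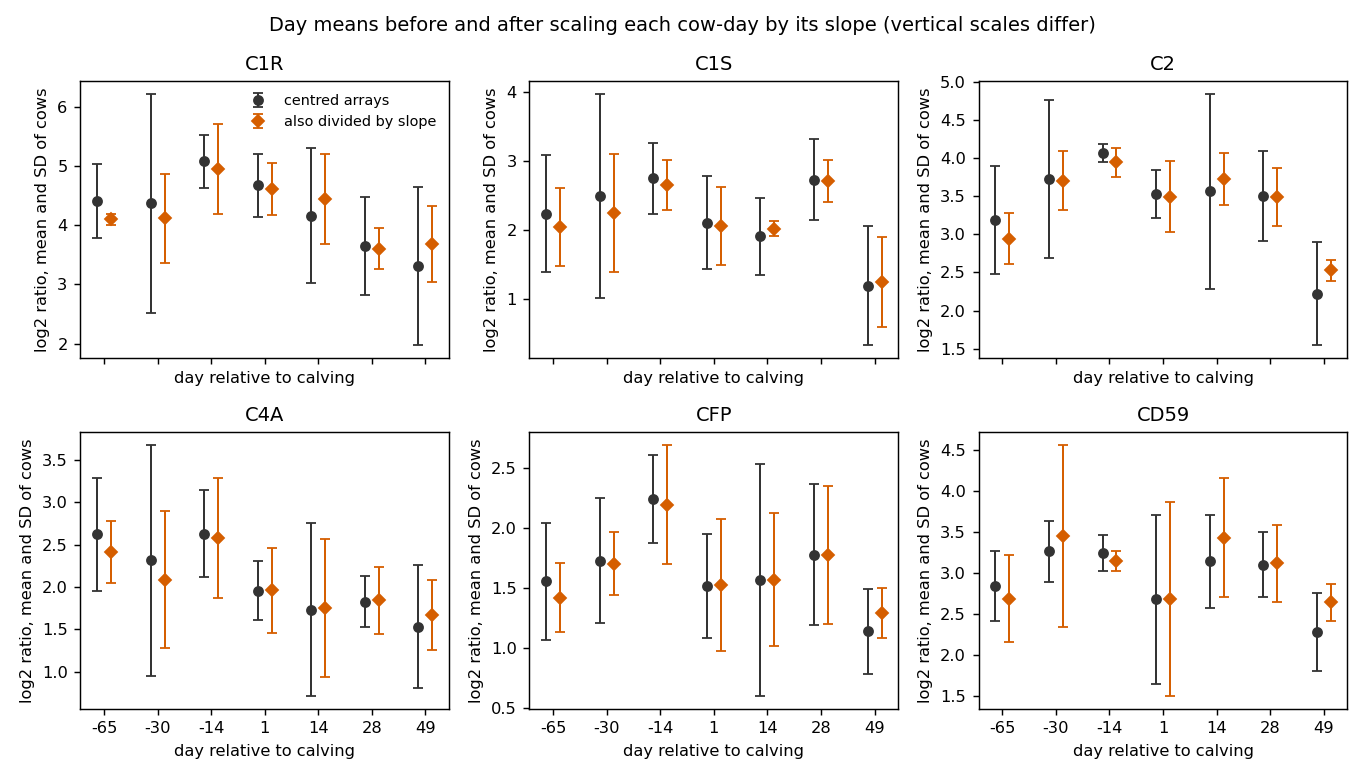
Day means with the SD of the cows (vertical axis, log2 ratio, separate scales) against day relative to calving for 6 complement genes, with centred arrays (dark circles) and after division of each cow-day by its slope (orange diamonds). The bars of C1R, C2 and C1S shorten on most days after division. Those of CD59 lengthen on days -65, -30, 1, 14 and 28, most on day -30, and C2 stays lowest on day 49.

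Among pairs of the 7 genes, correlations over 30 cow-days with the cow means removed ran from -0.05 between C1R and CFD to 0.85 between C2 and CFP, with 0.80 between C1R and C4A, 0.77 between C1R and C2 and 0.75 between C1S and C2. Among 4878 clones of other genes, the profile most like that of C1R was RBP4, the plasma carrier of vitamin A (r = 0.96), followed by UNC13D (0.93). C2 was most like C1QB, a chain of the C1q recognition molecule (0.96), and CFP most like C2 (0.85) and C1QB (0.83). For C4A these were CTSZ (0.90), RNF5 (0.89) and SPINT1 (0.89), and for C1S ALAD, an enzyme of haem synthesis (0.88), ECI1 (0.85) and MMACHC (0.85). CD59 stood with SOD1 (0.87), TSPAN3 (0.87) and PARK7 (0.86), and none of the 3 closest to CFD exceeded 0.68 (UQCRC1). All these clones share the arrays, and so the slope, with the members.

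Of 31 other complement genes on a fixed list, 6 were tested: the C1q chains C1QA, C1QB and C1QC, the C1 inhibitor SERPING1, which blocks C1r and C1s, and the complement receptors VSIG4 and ITGB2, the latter the shared beta chain of CR3 and CR4. In lactation against prepartum, 0 of 6 passed the adjusted threshold and 6 of 6 had estimates below 0, with a median of -0.52. Under 0.05 unadjusted lay 5 of the 6. Of all clones, 52.2% had estimates below 0 and 2.48% lay under 0.05 unadjusted and lower. Among the 220 clones at least 2-fold above the reference, these shares were 76.8% and 39 of 220. The C1q chains are themselves among those 220, while VSIG4 at 0.70 and ITGB2 at 0.27 lie below that level. The values were -0.58 ± 0.29 (SE) for C1QA, -0.64 ± 0.31 for C1QB, -0.74 ± 0.27 for C1QC, -0.47 ± 0.19 for SERPING1, -0.41 ± 0.19 for VSIG4 and -0.30 ± 0.12 for ITGB2. A second clone gave -0.62 for C1QB and -0.46 for C1QC. By cow, SERPING1 was lower in 3 of 5, the first C1QC clone in 4 of 5 and the second in 2 of 5 (unadjusted p = 0.126), so the C1QC clones differed in how many cows were lower.

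For the first C1QC clone, day 1 against day -30 gave -1.16 ± 0.41 (SE, unadjusted p = 0.00918, adjusted p = 0.449), lower in 5 of 5 cows, and day 28 against day 1 gave 0.93 ± 0.41, higher in 5 of 5. The second clone gave -0.85 ± 0.44 (unadjusted p = 0.0646), lower in 4 of 5 cows, with 0.09 in cow 6934 and -0.11 in cow 6983, and then 0.66, higher in 5 of 5. As given above, 26.4% of all clones were lower in at least 4 of 5 cows in the former comparison and 27.4% higher in the latter. In day 1 against day -30, 6 of 6 other complement genes had estimates below 0 and 0 of 6 passed. There 57.1% of all clones and 84.55% of the 220 clones at least 2-fold above the reference were below 0. In day 28 against day 1, 4 of 6 were above 0 and 0 of 6 passed, where 3266 of 5280 clones and 161 of those 220 were above 0. The difference between C1QC and any member was not tested.

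Marker lists of cells that make complement had the following estimates in lactation against prepartum, with 0 genes of any list past the adjusted threshold. Beside them, 52.2% of all clones and 76.8% of the 220 clones at least 2-fold above the reference had estimates below 0. The hepatocyte and macrophage counts lay near the latter share. Several genes of these lists, such as APOA1 at 0.06 and CD163 at 0.05, lie below that 2-fold level. The 220 clones leave out only the members, so list genes above that level are among them. Of the hepatocyte genes, 4 of 5 had estimates below 0, with a median of -0.33, for example TF at -0.36 and ASGR2 at -0.48 but APOA1 at 0.00. Of the macrophage and Kupffer cell genes, 8 of 11 were below 0, with a median of -0.17, CD68 at -0.31, CD14 at -0.45 and CD163 at -0.03. Genes of the response to interferon gamma, a cytokine known to raise C2 and C1 inhibitor synthesis, were below 0 in 9 of 9 cases, with a median of -0.24. Both measured acute phase genes were below 0, CP at -0.51 and SERPINA3-3 at -1.01. Neutrophil and lymphocyte genes had estimates above 0 in 5 of 5 cases, with a median of 0.24, and stellate cell and matrix genes in 5 of 6, with a median of 0.20. The part of these lists in the members' values was not tested.

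The nearest tested gene on each side of a member, where it was not itself a member, gave 10 neighbours. Of these, 5 had lactation estimates below 0, against 52.2% of all clones, with a median of -0.02. Beside the proteases these were C1RL, a relative of C1R with 1 gene between them, at -0.46 ± 0.24 (SE), LPCAT3, next to C1S, at -0.07 ± 0.11, and EHMT2, with 1 gene between it and C2, at -0.08 ± 0.10. ATF6B, with 5 genes between it and C4A on the side away from C2, had 0.20 ± 0.19. Beside CFP stood TIMP1, with 1 gene between, at 0.27 ± 0.29, and EBP, with 13 between, at -0.53 ± 0.34. CD59 had HIPK3 at -0.24 ± 0.25 and FBXO3 at 0.21 ± 0.18, and CFD had PTBP1 at 0.03 ± 0.16 and R3HDM4 at 0.09 ± 0.11. RNF5, with 11 genes between it and C4A and among the 3 profiles most like it, had -0.46 ± 0.16 (unadjusted p = 0.00941). None of these passed the adjusted threshold, and the difference from each member was not tested.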

How the data were processed

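The deposited values are log2 ratios of both dye channels at each spot, in 2 tables of 68 two-colour cDNA arrays from different prints; per the labels, slides were read with a confocal laser scanner and quantified with GenePix 4.0. How background, flags and normalization were handled is not given in the sources used here, and no channel intensities were used. Every array was centred on its median, arrays with liver in Cy3 had the sign turned, and the 2 spots of a clone and then both orientations of a cow and day were averaged. The labels do not name the numerator. Known liver genes lie above the reference this way round, though APOA1 hardly does. Symbols were updated through gene identifiers for 5591 of 5693 clones; 5598 named 1 gene, and 95 named several and were never named.

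Fits used limma 3.58.1 in R 4.3.3 within the larger table, with fixed terms for day and cow over 7 days, 19 residual degrees of freedom, 2-sided tests, and Benjamini-Hochberg adjustment over 5280 clones with at least 3 cows on each day (4966 complete). The term for cow pairs the repeated samples of an animal; as a random effect its consensus correlation was 0.16. P-values rest on the spread left between these samples (array noise included), and precision is limited by how many cows and cow-days there are. The fit was run on simulated data with known changes and independent noise for each clone. That simulation held no cow effect and no stretch shared by an array. It therefore does not tell how the calls fare under the slopes described above. The members and the 12 gene lists were chosen with earlier results of these data known. Named were every clone of the members, every tested gene of the other complement list, the first 3 tested genes of other lists, and the 3 clones most alike to each member by Pearson's r with cow means removed. Genes beside the members were named after their values had been seen. Alternatives changed 1 choice at a time: the cow term, cows, centring, scale, dye, pairs, tables, spots, array weights, missing values and days.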

Additional observations from a re-analysis of the deposited data

Results flagged for a closer look

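CD59 of cow 7186 on day -30, at a log2 ratio of 3.92, was the highest of 5 cows and stood apart from the nearest, 3.20, by 0.757 of the group's range, above Dixon's 95% critical value for 5. It was the 1 group to do so among 35 groups of 4 or 5 cows (a gene on a day); chance gives about 1 in 20. The same cow-day had the highest slope of all, 1.36.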

How the results depend on the processing

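The alternatives covered other scalings, dyes, spots, tables, terms and samples, and no member passed the adjusted threshold in any of them except that array weights gave 6 members for the day effect. The replicate block changed no call: without the cow term the lactation estimates were -0.91 for C1R and -0.83 for C4A, and with cow as a random effect -0.96 and -0.88. Of 140 estimates per comparison, 136 kept their sign for lactation, 132 for day 1 against day -30, 131 for day 28 against day 1 and 130 for day 28 against day -30; the cause of the changes was not tested. In lactation against prepartum the sign turned for C2 (0.0066) without pairs that did not oppose, and for CFD with both tables joined (-0.0171) and divided by the slope (-0.0131). In day 1 against day -30 it turned for CFD uncentred (0.0200), for C1R scaled to 1 median absolute deviation (-0.66) and with Cy5 alone (-0.15), and for C2 with Cy3 alone (0.20). In day 28 against day 1 it turned for C2 uncentred (0.0174), scaled (0.84), with Cy5 (0.33), on the second spot (0.0863) and weighted (0.0792), and for C4A scaled (0.0398) and with Cy5 (0.0174). In day 28 against day -30 it turned for CD59 uncentred (0.0038), CFP scaled (-0.26) and with Cy5 (-0.0918), C1S with Cy3 (-0.14), CFD with Cy5 (-0.0383) and C2 weighted (0.0299). Leaving out each cow gave -0.0210 to 0.0351 for CFD in lactation; -0.51 to 0.77 for C1R, -0.93 to 0.11 for C1S, -0.62 to 0.17 for C2 and -0.42 to 0.0041 for CFP in day 1 against day -30; -0.19 to 0.16 for C2 in day 28 against day 1; and -0.12 to 0.69 for C1S, -0.69 to 0.0410 for C2 and -0.29 to 0.28 for CFP in day 28 against day -30. Without centring the median of all clones was 0.14 in lactation, 0.07, 0.11 and 0.16 in the later comparisons. Array weights called 884 clones for the day effect, 14 in lactation, 72 in day 1 against day -30 and 104 in day 28 against day 1, against 1, 0, 1 and 0.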
